A study of Homo sapiens with 18 samples.

Results

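The genes described here encode the aminoacyl-tRNA synthetases expressed in A1847 cells, a human high-grade serous ovarian cancer line. They were taken by gene name and comprise 35 of the 57736 genes in the count table, of which 19 encode enzymes of the cytosol and 16 encode enzymes of mitochondria, the latter with names ending in 2. RNA-seq covered A1847 cells of 3 genotypes, which were control cells labelled wild type, CARM1 knockout cells and XBP1 knockdown cells. Each genotype was treated with vehicle or with tunicamycin (5 μg/ml, 8 h), with 3 libraries per group and 18 in all. The knockout was made with a lentiviral CRISPR vector and 1 guide, the knockdown with 1 shRNA, and whether the knockout cells are a clone or a pool, and whether the control cells carried a control vector, is not given in the sources used here. CARM1 is an arginine methyltransferase that acts as a transcriptional coactivator. XBP1 encodes, once its mRNA is spliced by IRE1α, a transcription factor of the unfolded protein response. The comparisons asked how the synthetase mRNAs respond to tunicamycin, whether either modified genotype changes their level or that response, and whether the cytosolic and the mitochondrial enzymes differ in these respects.

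Aminoacyl-tRNA synthetases load each tRNA with its amino acid and so supply translation with its substrates. Human cells hold one set of these enzymes for cytosolic translation and another, also encoded in the nucleus, for the translation of the few proteins made inside mitochondria. Tunicamycin inhibits N-linked glycosylation, and proteins that fail to fold in the ER for this reason activate the kinase PERK, which phosphorylates eIF2α, slows general translation and raises the translation of the transcription factor ATF4. Genes for amino acid uptake and synthesis and many genes of cytosolic tRNA synthetases are known targets of ATF4.

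Library totals were 9367462 to 13917212 counts, and every synthetase gene passed the filter on low counts, with a lowest single count of 46 for MARS2. Across genes, log2 CPM (counts scaled to the size of each library, with TMM factors) correlated between replicates with r from 0.986 to 0.989 over 18 pairs, between control and knockdown libraries with r from 0.961 to 0.987, and between the knockout libraries and the other 12 libraries with r from 0.73 to 0.775. The knockout libraries therefore stood apart from the rest. CARM1 mRNA was lower than control in the knockout (log2 fold change −1.17 with vehicle and −0.92 with tunicamycin), and XBP1 mRNA was lower than control in the knockdown (−0.86 and −1.06), each past the edgeR threshold used throughout. XBP1 mRNA was also called lower in vehicle-treated knockout cells (−0.47) and was not called with tunicamycin (−0.06). CARM1 mRNA was called higher in the knockdown (0.22 with vehicle and 0.37 with tunicamycin). Of 12 markers of ovarian epithelium, 7 including PAX8, WT1, MUC16 and KRT7 were below 1 CPM in every control library, 9 in every knockdown library and 3 in every knockout library. The summed level of these markers was 312.6 to 490.3 CPM in control, 131.6 to 215.5 in knockdown and 2272.5 to 2788.1 in knockout libraries, and that of 9 markers of fibroblasts, endothelium and blood cells was 898.0 to 1118.4, 724.8 to 1057.7 and 187.2 to 502.2 CPM. Loss of CARM1 and whatever else sets the knockout libraries apart cannot be told apart in the comparisons of knockout with control cells. In these bulk samples, fewer cells of a type and less RNA per cell cannot be told apart either. Nothing in the labels says that the 3 libraries of a group came from separate cultures, so p-values measure the spread between these libraries, which may be technical.

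Promoters of 7 cytosolic synthetase genes hold the letters of the C/EBP-ATF response element, the sequence bound by ATF4 with a C/EBP partner, and these sites are shown because the genes that carry them include several of those with the largest tunicamycin responses below. In promoter windows from 250 bases before to 50 after the start site, taken from RefSeq on GRCh38.p14 and available for 30 of the 35 genes, TGATGNAA was searched on both strands. Some genes have several windows (35116 windows over 27305 genes), and a gene was counted if any of its windows held a match. The motif was found for 7 of 16 cytosolic genes (43.8%), 1 of 14 mitochondrial genes (7.14%) and 1217 of all 27305 genes (4.46%). Each site is printed in the direction of its gene with 11 bases on either side, and capitals mark the letters that match the motif or its reverse complement.
AARS1 (chr16:70289675-70289704, minus strand): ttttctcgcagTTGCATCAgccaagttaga
CARS1 (chr11:3057407-3057436, minus strand): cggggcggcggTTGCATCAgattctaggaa
GARS1 (chr7:30594834-30594863, plus strand): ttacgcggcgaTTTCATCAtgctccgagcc
IARS1 (chr9:92293692-92293721, minus strand): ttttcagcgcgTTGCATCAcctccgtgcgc
MARS1 (chr12:57488053-57488082, plus strand): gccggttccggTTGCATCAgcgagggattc
NARS1 (chr18:57621804-57621833, minus strand): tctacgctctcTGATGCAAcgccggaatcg
TARS1 (chr5:33440956-33440985, plus strand): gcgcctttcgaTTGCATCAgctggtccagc
YARS2 (chr12:32756076-32756105, minus strand): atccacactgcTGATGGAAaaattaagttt
The matched letters were TTGCATCA in AARS1, CARS1, IARS1, MARS1 and TARS1, and NARS1 holds the reverse complement of the same letters, while GARS1 and YARS2 differ from these and from each other at the free letter of the motif. The match began 187 bases before the start site in AARS1 and 33 before it in GARS1, whereas in CARS1, IARS1, MARS1, NARS1 and TARS1 it lay between −13 and 14 of it. Restricted to the bases before the start site, the motif was present for 3 of 16 cytosolic genes (18.8%) against 3.89% of all genes. The unfolded protein response element TGACGTGG occurred in windows of CARS1 and CARS2 (0.927% of all genes). In CARS1 it lay in another window (chr11:3040935-3040964) than the site printed above. The cyclic AMP response element TGACGTCA and the ER stress response element occurred for none of the 30 genes (2.25% and 0.0916% of all genes). A match of letters is a description of the sequence and not evidence of a bound site.

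Tunicamycin raised the mRNA of nearly the whole cytosolic set in control cells, and that of 5 of 16 mitochondrial enzymes. Of the 19 cytosolic genes, 17 rose and 0 fell, against 22.0% of all 17317 genes tested that rose and 19.9% that fell (edgeR quasi-likelihood test, FDR of 5% with Benjamini-Hochberg adjustment over all genes). Of the 16 mitochondrial genes, 5 rose and 1 fell, and their rises are not far from the 22.0% over all genes. Counts of the mitochondrial genes were mostly lower than those of the cytosolic ones, and how far this limited their calls was not tested. The median log2 fold change was 0.98 over the cytosolic genes, 0.12 over the mitochondrial genes and 0 over all genes. No cytosolic gene was lower at an unadjusted p under 0.05, and DESeq2 called 0 lower and 16 higher. In the 3 vehicle-treated control libraries the summed level of the cytosolic genes was 2948.3 ± 46.7 CPM (SD, n = 3), and with tunicamycin it was 6415.9 ± 90.8 (SD, n = 3), 2.176 times as high. The summed level of the mitochondrial genes was 520.0 ± 17.1 and 572.7 ± 10.9 CPM (SD, n = 3 each), a ratio of 1.101.

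**Figure D1:**
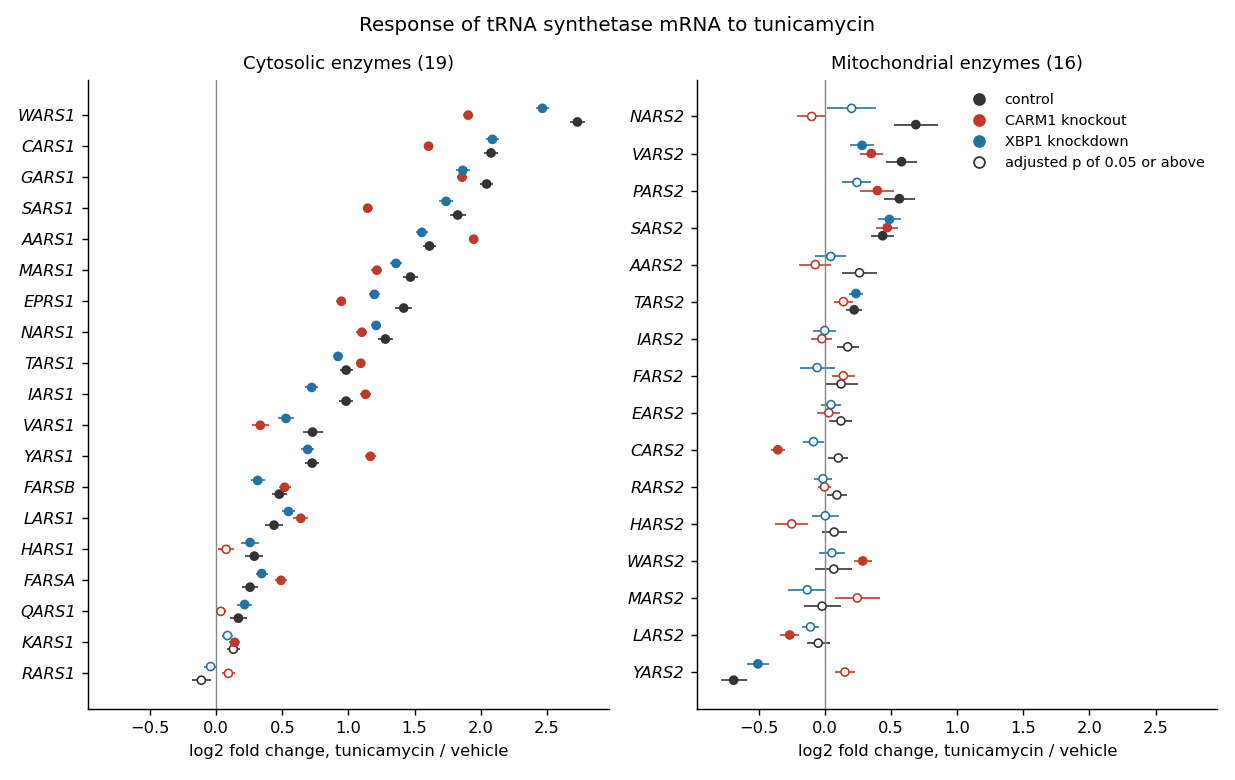
Log2 fold change of each synthetase mRNA with tunicamycin over vehicle in control (black), CARM1 knockout (red) and XBP1 knockdown cells (blue), with cytosolic enzymes at left and mitochondrial enzymes at right. Bars are standard errors from edgeR and open points have an adjusted p of 0.05 or above; the cytosolic responses in control cells reach from −0.11 (RARS1) to 2.73 (WARS1), the mitochondrial ones from −0.69 (YARS2) to 0.69 (NARS2).

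WARS1 (ENSG00000140105, chromosome 14 of GRCh37 from 100800127 to 100843142, minus strand), the tryptophan enzyme, had the largest response of the family in control cells. Its level was 67.7, 70.5 and 68.6 CPM in the vehicle libraries and 437, 451 and 475 CPM in the tunicamycin libraries. The groups were far apart, and the log2 fold change was 2.73 (standard error 0.0577, edgeR adjusted p = 3.56e-15), which is 6.64-fold. CARS1 (ENSG00000110619, chromosome 11 from 3022152 to 3078843, minus strand), the cysteine enzyme, rose from 82.6, 82.3 and 80.2 CPM to 342, 333 and 352 CPM, 4.22-fold (log2 fold change 2.08, standard error 0.0548, edgeR adjusted p = 4.51e-14). GARS1 (ENSG00000106105, chromosome 7 from 30620149 to 30673649, plus strand), whose gene supplies the glycine enzyme of both the cytosol and mitochondria, rose from 161, 166 and 169 CPM to 691, 657 and 684 CPM, 4.13-fold (log2 fold change 2.04, standard error 0.0519, edgeR adjusted p = 2.69e-14). SARS1 (ENSG00000031698, chromosome 1 from 109756540 to 109780804, plus strand), the serine enzyme, rose from 94.1, 93.0 and 82.4 CPM to 313, 309 and 324 CPM, 3.55-fold (log2 fold change 1.83, standard error 0.0616, edgeR adjusted p = 9.42e-13). In each of the 4 genes every tunicamycin library lay above every vehicle library by more than the spread within either group. The sites shown above are present in CARS1 and GARS1 and absent from the windows of WARS1 and SARS1.

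**Figure D2:**
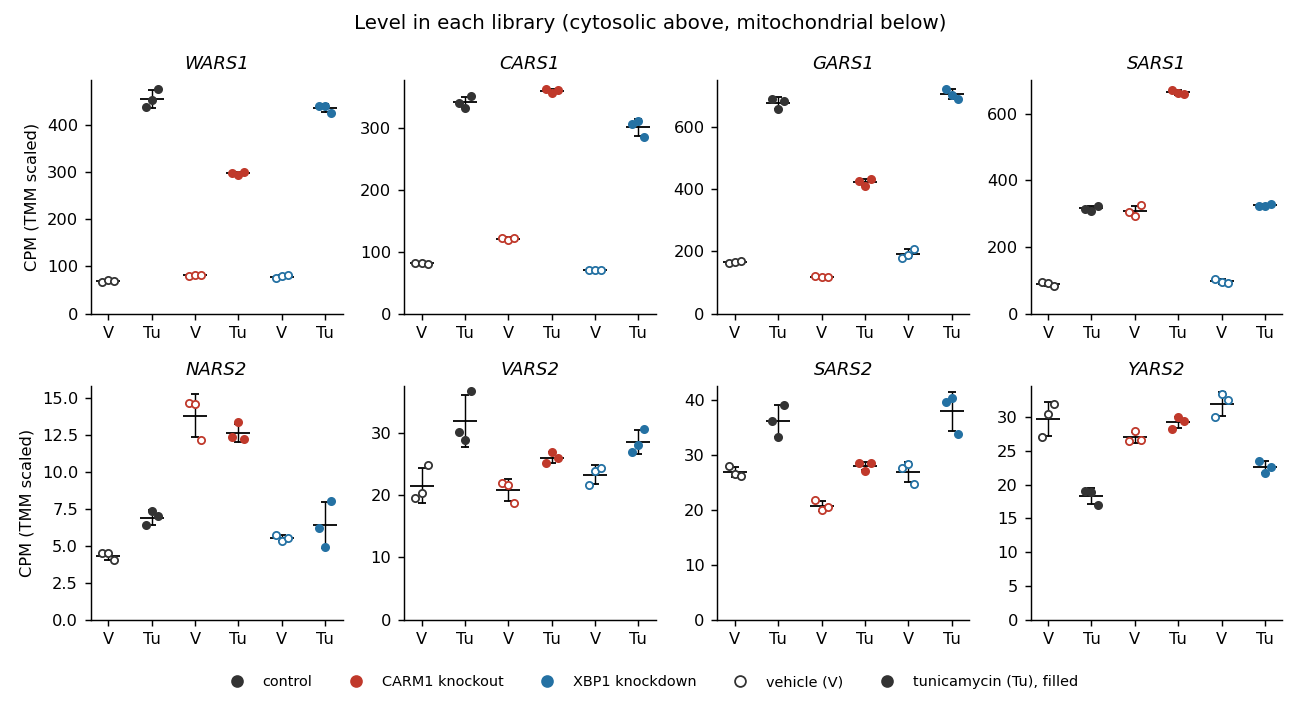
Level in CPM of 4 cytosolic (upper row) and 4 mitochondrial (lower row) synthetase mRNAs in every library, with vehicle (V, open) and tunicamycin (Tu, filled) in each genotype and bars for the mean and SD of 3 libraries. WARS1 reaches 437 to 475 CPM with tunicamycin in control cells but 293 to 299.7 CPM in CARM1 knockout cells, and YARS2 is lower with tunicamycin in control and XBP1 knockdown cells, not in knockout cells.

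The other cytosolic genes that rose in control cells formed a graded series. AARS1 (alanine, 1.61 on the log2 scale), MARS1 (methionine, 1.47), EPRS1 (the bifunctional enzyme for glutamate and proline, 1.42) and NARS1 (asparagine, 1.28) rose by more than 1 on this scale. TARS1 (threonine) and IARS1 (isoleucine) both had a log2 fold change of 0.98, and VARS1 (valine) and YARS1 (tyrosine) both had 0.73. Smaller rises were seen in FARSB (0.48) and FARSA (0.26), the subunits of the phenylalanine enzyme, in LARS1 (leucine, 0.44), HARS1 (histidine, 0.29) and QARS1 (glutamine, 0.17). KARS1 (lysine, another gene that supplies both compartments) was at 0.13 (standard error 0.0520, edgeR adjusted p = 0.0573) and RARS1 (arginine) at −0.11 (standard error 0.0738, edgeR adjusted p = 0.25), so neither passed the threshold. Leaving out the third vehicle library brought both past it, KARS1 at 0.16 (edgeR adjusted p = 0.0212) and RARS1 at −0.21 (edgeR adjusted p = 0.00547). QARS1 was close to the threshold (edgeR adjusted p = 0.0453). Its call was lost with DESeq2 (adjusted p = 0.0603) and without vehicle library 1 or 2 or tunicamycin library 2 or 3 (edgeR adjusted p from 0.0944 to 0.255).

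The same genes may be read by the assembly of their enzymes. In the cytosol 7 of the synthetases on the list (EPRS1, IARS1, KARS1, LARS1, MARS1, QARS1 and RARS1) belong to the multisynthetase complex, a particle held together by the scaffold proteins AIMP1, AIMP2 and EEF1E1. Of these 7, 5 rose in control cells with a median log2 fold change of 0.44, while all 12 cytosolic genes outside the complex rose with a median of 1.13. In knockout cells 5 of 7 and 11 of 12 rose (medians 0.64 and 1.12), and in knockdown cells 5 of 7 and 12 of 12 (0.55 and 1.07). The structural classes of the enzymes, which differ in the fold of the catalytic domain, gave similar counts, with 8 of 9 class I and 8 of 9 class II cytosolic genes higher in control cells (medians 0.73 and 0.98, EPRS1 holding both classes and left out). Promoters offered another division. The 7 cytosolic genes with TGATGNAA in the window all rose in each genotype, with control responses of 0.98 to 2.08 (median 1.47), and of the 9 with a window but no motif 7 rose in control cells, with responses of −0.11 to 2.73 (median 0.29). WARS1, SARS1 and EPRS1 were the genes without the motif that had responses above 1.

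Among the mitochondrial enzymes, 5 genes rose in control cells by less than most cytosolic ones and YARS2 moved the other way. NARS2 (ENSG00000137513, chromosome 11 from 78146666 to 78286239, minus strand), the mitochondrial asparagine enzyme, was at 4.49, 4.49 and 4.02 CPM with vehicle and at 6.40, 7.34 and 6.99 CPM with tunicamycin (log2 fold change 0.69, standard error 0.165, edgeR adjusted p = 0.00290). VARS2 (ENSG00000137411, chromosome 6 from 30881982 to 30894236, plus strand), the mitochondrial valine enzyme, was at 19.5, 20.3 and 24.8 CPM with vehicle and at 30.2, 28.9 and 36.6 CPM with tunicamycin (log2 fold change 0.58, standard error 0.114, edgeR adjusted p = 0.000560). Neither gene overlapped between the groups. YARS2 (ENSG00000139131, chromosome 12 from 32880424 to 32908831, minus strand), the mitochondrial tyrosine enzyme, fell from 27.0, 30.4 and 31.9 CPM to 19.1, 18.9 and 16.9 CPM (log2 fold change −0.69, standard error 0.0977, edgeR adjusted p = 2.35e-05). It was the only synthetase of either compartment that fell in control cells, and the only mitochondrial one with TGATGNAA in its promoter window. PARS2 (proline, 0.56), SARS2 (serine, 0.44) and TARS2 (threonine, 0.22) also rose. TARS2 lost its call without vehicle library 2 or tunicamycin library 2 (edgeR adjusted p = 0.0516 and 0.0521), and IARS2, at 0.17 and not called, gained one without vehicle library 3 (log2 fold change 0.29, edgeR adjusted p = 0.00148). The remaining 9 genes lay between −0.05 (LARS2) and 0.26 (AARS2) and did not pass the threshold.

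The cytosolic and the mitochondrial enzyme for the same amino acid can be set side by side in 17 pairs, in which each phenylalanine subunit is set against FARS2, and EPRS1 against both EARS2 (glutamate) and PARS2 (proline). The cytosolic gene had the larger tunicamycin response in 16 of 17 pairs in control cells, the exception being arginine (RARS1 −0.11, RARS2 0.09). In 5 pairs both genes rose, and for tyrosine YARS1 rose (0.73) while YARS2 fell (−0.69). For tryptophan the responses were 2.73 for WARS1 and 0.07 for WARS2 (not called), and for cysteine 2.08 for CARS1 and 0.10 for CARS2 (not called). In CARM1 knockout cells the cytosolic gene again had the larger response in 16 of 17 pairs, the exception being valine (VARS1 0.33, VARS2 0.35), and in XBP1 knockdown cells in 16 of 17, the exception being arginine (RARS1 −0.04, RARS2 −0.02). A pair of opposite calls, cytosolic higher and mitochondrial lower, was seen for 2 amino acids in knockout cells (cysteine and leucine) and for 1 in knockdown cells (tyrosine).

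**Figure D3:**
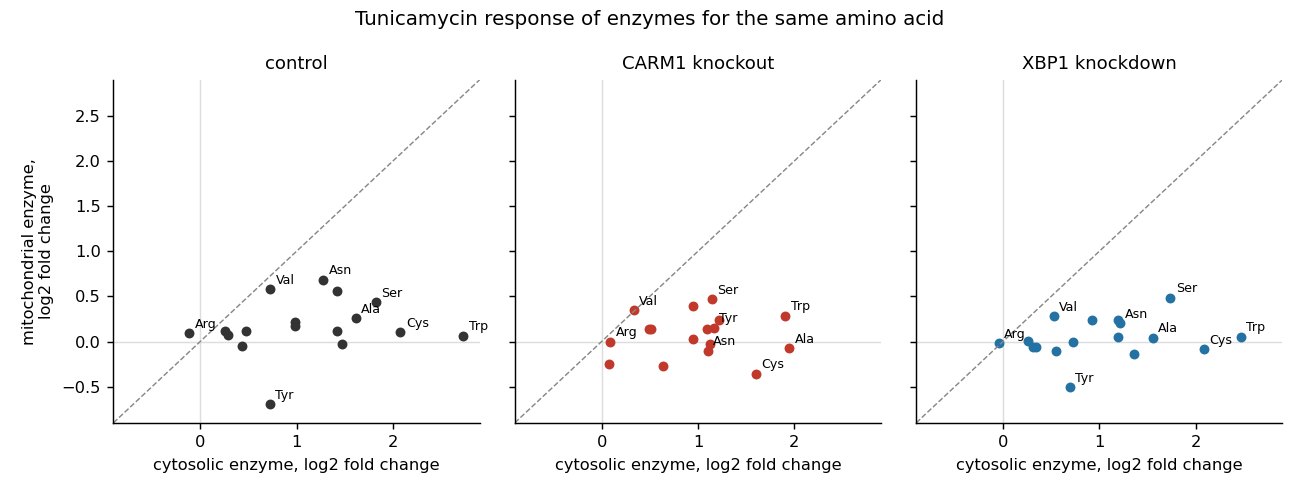
Log2 fold change with tunicamycin of the mitochondrial enzyme (vertical axis) against that of the cytosolic enzyme for the same amino acid (horizontal axis) in the 3 genotypes, with a dashed line where both are equal and some amino acids named by their 3-letter code. In each genotype 16 of 17 points lie under the line.

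Genes that act beside the synthetases are given for the same comparison, in which 22.0% of all genes rose and 19.9% fell. Of 9 genes for scaffold proteins, elongation factors and tRNA export in the cytosol, 8 rose in control cells with a median log2 fold change of 0.33, led by XPOT (0.76), which exports tRNA from the nucleus, AIMP2 (0.60) and AIMP1 (0.44). Of 12 genes for mitochondrial tRNA modification and translation factors, 5 rose and 3 fell (median 0.12). MTFMT (−0.53), which formylates the initiator methionyl-tRNA of mitochondria, fell, and GFM2 (0.49) and MTIF2 (0.39), translation factors of mitochondria, rose. Of 12 genes of the kinases and transcription factors of the integrated stress response, 8 rose and 2 fell (median 2.02). ATF4 itself was at 413, 412 and 429.7 CPM with vehicle and at 1461, 1392 and 1510.4 CPM with tunicamycin, a log2 fold change of 1.81 (standard error 0.0509, edgeR adjusted p = 9.37e-14). Larger changes were measured for ATF3 (6.50), TRIB3 (4.73) and DDIT3 (4.61), all targets of the same pathway. Of 23 genes for amino acid synthesis and uptake and other known ATF4 targets, 22 rose (median 2.04). ASNS, asparagine synthetase, rose by 2.93 on the log2 scale, and NUPR1 (7.17), SLC7A11 (5.02) and CHAC1 (4.78) by more. PYCR1 was the one not called (0.03, edgeR adjusted p = 0.993).

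In CARM1 knockout cells the number of cytosolic genes that rose with tunicamycin was almost as in control cells, but the order of their responses differed. In knockout cells 16 of 19 cytosolic genes rose and 0 fell, against 20.6% of all genes that rose and 18.8% that fell, and 4 of 16 mitochondrial genes rose and 2 fell. Medians were 1.09 and 0.08. No cytosolic gene was lower at an unadjusted p under 0.05 or with DESeq2. The summed cytosolic level went from 2674.1 ± 20.2 to 5488.7 ± 27.8 CPM (SD, n = 3 each), a ratio of 2.053, while the summed mitochondrial level was 470.8 ± 2.0 and 466.2 ± 12.8 CPM, and these groups overlapped. AARS1 had the largest response (1.95), followed by WARS1 (1.91), GARS1 (1.86) and CARS1 (1.61). HARS1 (0.07), QARS1 (0.03) and RARS1 (0.09) did not pass the threshold. KARS1 rose slightly (0.14, edgeR adjusted p = 0.0125) and lost this call without vehicle library 3 or tunicamycin library 3 (edgeR adjusted p from 0.0575 to 0.0622), and RARS1 gained one without vehicle library 1 (0.14, edgeR adjusted p = 0.0296).

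Mitochondrial genes that rose in the knockout were SARS2 (0.47), PARS2 (0.40), VARS2 (0.35) and WARS2 (0.29). CARS2, the mitochondrial cysteine enzyme, was at 73.9, 80.9 and 82.1 CPM with vehicle and at 58.7, 60.9 and 60.4 CPM with tunicamycin. It fell by 0.36 on the log2 scale (standard error 0.0557, edgeR adjusted p = 1.92e-05) and the groups did not overlap. LARS2, the mitochondrial leucine enzyme, was at 41.2, 40.4 and 41.9 CPM with vehicle and at 35.3, 32.2 and 32.7 CPM with tunicamycin, also without overlap (log2 fold change −0.27, standard error 0.0703, edgeR adjusted p = 0.00412). PARS2 lost its call with DESeq2 (adjusted p = 0.0673) and without vehicle library 3 or tunicamycin library 3 (edgeR adjusted p from 0.0629 to 0.135), and FARS2 gained one without tunicamycin library 1 (0.22, edgeR adjusted p = 0.0488). YARS2, which fell in control cells, was at 26.5, 27.9 and 26.6 CPM with vehicle and at 28.3, 30.0 and 29.4 CPM with tunicamycin, which did not pass the threshold (0.15, edgeR adjusted p = 0.135).

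In XBP1 knockdown cells the response resembled that of control cells gene by gene. Of the cytosolic genes 17 rose and 0 fell, against 19.2% of all genes that rose and 19.0% that fell, and of the mitochondrial genes 3 rose and 1 fell. Medians were 0.72 and 0.02. No cytosolic gene was lower at an unadjusted p under 0.05 or with DESeq2. WARS1 went from 74.7, 78.9 and 80.8 CPM to 439, 439.9 and 425 CPM, which is 5.53-fold (log2 fold change 2.47, standard error 0.0482, edgeR adjusted p = 9.32e-15), and CARS1 (2.09), GARS1 (1.86) and SARS1 (1.74) followed in the same order as in control cells. KARS1 (0.08) and RARS1 (−0.04) did not pass the threshold. HARS1 (0.26) lost its call without vehicle library 2 (0.21, edgeR adjusted p = 0.0519). SARS2 (0.49), VARS2 (0.28) and TARS2 (0.23) rose. VARS2 lost its call without vehicle library 1 or tunicamycin library 3 (edgeR adjusted p from 0.0819 to 0.0903). YARS2 fell again, from 30.0, 33.4 and 32.6 CPM to 23.6, 21.7 and 22.6 CPM (log2 fold change −0.51, standard error 0.0835, edgeR adjusted p = 0.000157), with no overlap between the groups.

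The 3 responses were measured in separate libraries and may be set side by side. Called higher in every genotype were 15 of 19 cytosolic genes, namely those other than HARS1, KARS1, QARS1 and RARS1, and 2 of 16 mitochondrial genes, SARS2 and VARS2, next to 1738 of all 17317 genes. Over the 19 cytosolic genes the response in knockdown cells followed that in control cells with Pearson's r of 0.991 (Spearman's rho 0.982, slope 0.921), and the response in knockout cells with r of 0.903 (rho 0.882, slope 0.724). Over the 16 mitochondrial genes r was 0.886 for knockdown and 0.227 for knockout cells. These are descriptions across genes, which are not independent. ATF4 rose by 1.31 on the log2 scale in knockout and by 1.74 in knockdown cells, and ASNS by 2.68 and 2.62. All 23 genes for amino acid supply and ATF4 targets rose in both, as did 9 of 9 and 8 of 9 cytosolic partner genes. Of the 12 mitochondrial partners 3 rose and 0 fell in knockout cells, where 20.6% of all genes rose and 18.8% fell, and 4 rose and 2 fell in knockdown cells, where 19.2% rose and 19.0% fell. Of the 12 stress regulators 9 rose and 2 fell in knockout cells, and 8 rose and 2 fell in knockdown cells.

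The difference between genotypes in the response itself was tested with an interaction term of genotype and tunicamycin. In CARM1 knockout against control cells the term was past the threshold for 10 of 19 cytosolic genes, 3 positive and 7 negative. It was past the threshold for 3 of 16 mitochondrial genes, 1 positive and 2 negative. A positive term is called a larger response here and a negative term a smaller one, whether the gene rose or fell with tunicamycin. Over all genes 10.5% had a larger and 12.4% a smaller response. Median terms were −0.15 over the cytosolic and −0.15 over the mitochondrial genes, and −0.01 over all genes. Without the filter on low counts the split of all calls moved from 45.8% to 57.6% larger, and the median over all genes from −0.01 to 0.06. Leaving out any one of the 6 control libraries moved that split in the same way, to between 56.4% and 58.9% larger with a median over all genes of 0.05 to 0.07, and leaving out any one of the 6 knockout libraries kept it between 44.5% and 46.7%. The split over all genes thus has no fixed direction, and small terms are to be read with a shift of this size in mind.

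On the log2 scale, the smaller responses in the knockout included those of several of the most induced cytosolic genes. WARS1 was at 80.6, 81.5 and 81.5 CPM with vehicle and at 297, 293 and 299.7 CPM with tunicamycin in knockout cells, a rise of 3.75-fold against 6.64-fold in control cells, and its interaction term was −0.85 (standard error 0.0645, edgeR adjusted p = 7.53e-09). All 3 knockout libraries with tunicamycin lay below the 3 control ones, although those with vehicle lay above. SARS1 followed with −0.70 (edgeR adjusted p = 5.20e-07), then CARS1 and EPRS1 with −0.49 each, VARS1 with −0.41, MARS1 with −0.27 and GARS1 with −0.20. These terms compare ratios. In CPM, mean SARS1 rose by more in the knockout (307.9 to 663.8) than in control cells (89.8 to 315.6). The rise of MARS1 was about equal (266.0 and 269.4 CPM). WARS1, CARS1, EPRS1, VARS1 and GARS1 rose by less in the knockout in CPM as well. For NARS2 the term was −0.81 (standard error 0.186, edgeR adjusted p = 0.00309), with 14.7, 14.6 and 12.1 CPM with vehicle and 12.4, 13.3 and 12.2 CPM with tunicamycin in knockout cells, and for CARS2 it was −0.48. CARS2 was not called in control cells (0.10) and fell in knockout cells (−0.36). ATF4 had a term of −0.52 (edgeR adjusted p = 9.97e-07). In vehicle-treated knockout cells ATF4 was higher than control (0.34, edgeR adjusted p = 2.17e-06), as were SARS1, CARS1, NARS2 and CARS2, whose values are given below. WARS1 (0.19), VARS1 (0.33) and MARS1 (0.40) were also higher there, whereas EPRS1 and GARS1 were lower. The part of these starting levels in the terms was not tested.

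Larger responses in the knockout were measured for YARS1 with a term of 0.42 (standard error 0.0641, edgeR adjusted p = 5.96e-05), AARS1 with 0.32 (standard error 0.0578, edgeR adjusted p = 0.000409) and FARSA with 0.21 (standard error 0.0730, edgeR adjusted p = 0.0391). YARS1 was at 110.2, 111 and 118 CPM with vehicle and at 245, 247 and 249.8 CPM with tunicamycin in knockout cells, and at 164, 169.7 and 179 and at 279, 282 and 279.9 CPM in control cells. The genotypes were thus farther apart with vehicle than with tunicamycin. FARSA was at 92.4, 98.7 and 97.4 and at 132, 128 and 134 CPM in knockout cells, and at 176, 174 and 169 and at 192, 206 and 217 CPM in control cells. YARS2 had the largest positive term of the family, 0.82 (standard error 0.118, edgeR adjusted p = 2.89e-05), since it fell in control and not in knockout cells. Both tyrosine enzymes therefore had a positive term, YARS1 with a larger rise in the knockout and YARS2 with a fall seen only in control cells. The call of FARSA was lost without vehicle-treated knockout library 1 or 3 or any tunicamycin-treated knockout library (terms 0.18 to 0.23, edgeR adjusted p from 0.0501 to 0.118). GARS1 lost its call without any one control library, vehicle-treated knockout library 1 or tunicamycin-treated knockout library 2 (terms −0.19 to −0.11, edgeR adjusted p from 0.0532 to 0.273) and with no filter on low counts (−0.13, adjusted p = 0.293). MARS1 lost it without vehicle-treated control library 1 or 2 or tunicamycin-treated control library 3 (−0.21 to −0.18, edgeR adjusted p from 0.0564 to 0.106), and VARS1 without vehicle-treated control library 2 or tunicamycin-treated control library 3 (−0.33 to −0.27, edgeR adjusted p from 0.0507 to 0.0671). Calls were gained without vehicle-treated control library 3 by LARS1 (0.33, edgeR adjusted p = 0.00661), RARS1 (0.35, edgeR adjusted p = 0.00171) and TARS1 (0.16, edgeR adjusted p = 0.0450), and by IARS1 without vehicle-treated control library 1 or 2 or tunicamycin-treated control library 1 or 3 (0.20 to 0.22, edgeR adjusted p from 0.0377 to 0.0479).

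In XBP1 knockdown against control cells the interaction was past the edgeR threshold for 0 of 19 cytosolic and 0 of 16 mitochondrial genes, against 0.364% of all genes with a larger and 1.67% with a smaller response. At an unadjusted p under 0.05 there were 5 cytosolic genes with a smaller response, none with a larger one, and no mitochondrial gene in either direction. DESeq2 called 2 cytosolic genes, WARS1 (−0.25, adjusted p = 0.0249) and IARS1 (−0.25, adjusted p = 0.0258), and none of the 13 mitochondrial genes to which it gave an adjusted p. In edgeR the term of WARS1 was −0.26 (standard error 0.0689, adjusted p = 0.0598) and that of IARS1 −0.25 (standard error 0.0707, adjusted p = 0.0734). WARS1 passed without vehicle-treated knockdown library 1 (−0.29, edgeR adjusted p = 0.0396), and IARS1 without that library or vehicle-treated control library 3 (−0.29 to −0.28, edgeR adjusted p from 0.0254 to 0.0488). Median terms were −0.05 over the cytosolic, −0.10 over the mitochondrial and 0 over all genes.

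**Figure D4:**
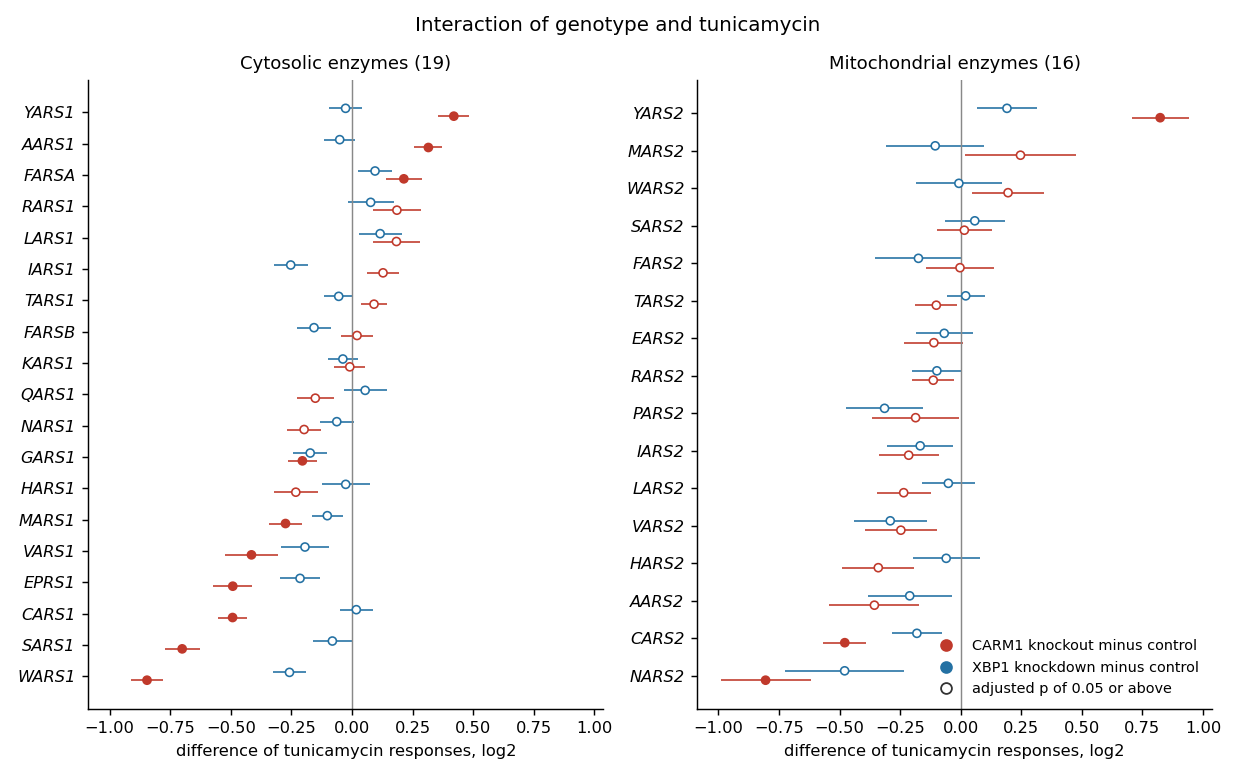
Difference of the tunicamycin response from that in control cells, on the log2 scale, for CARM1 knockout (red) and XBP1 knockdown cells (blue), with cytosolic enzymes at left and mitochondrial enzymes at right. Bars are standard errors from edgeR and open points have an adjusted p of 0.05 or above; the knockout terms run from −0.85 (WARS1) to 0.82 (YARS2), and no knockdown term is filled.

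The level of most synthetase mRNAs differed between CARM1 knockout and control cells, in both directions and in both compartments. With vehicle, 6 cytosolic genes were higher and 12 lower, and 5 mitochondrial genes were higher and 7 lower. This is to be read against the 37.5% of all genes that were higher and 36.9% that were lower in the same comparison. With tunicamycin, 4 cytosolic genes were higher and 10 lower and 6 mitochondrial genes were higher and 9 lower, against 38.4% and 36.8% of all genes. Medians with vehicle were −0.18 (cytosolic), −0.16 (mitochondrial) and −0.03 (all genes), and with tunicamycin −0.18, −0.30 and −0.02. The vehicle and the tunicamycin comparison share no library. Called in the same direction in both were 3 higher and 8 lower cytosolic genes and 5 higher and 7 lower mitochondrial genes, and 2 cytosolic genes, AARS1 and WARS1, were called in opposite directions. Over all genes 32.8% were higher under both treatments, 30.2% were lower under both and 1.77% were called in opposite directions.

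**Figure D5:**
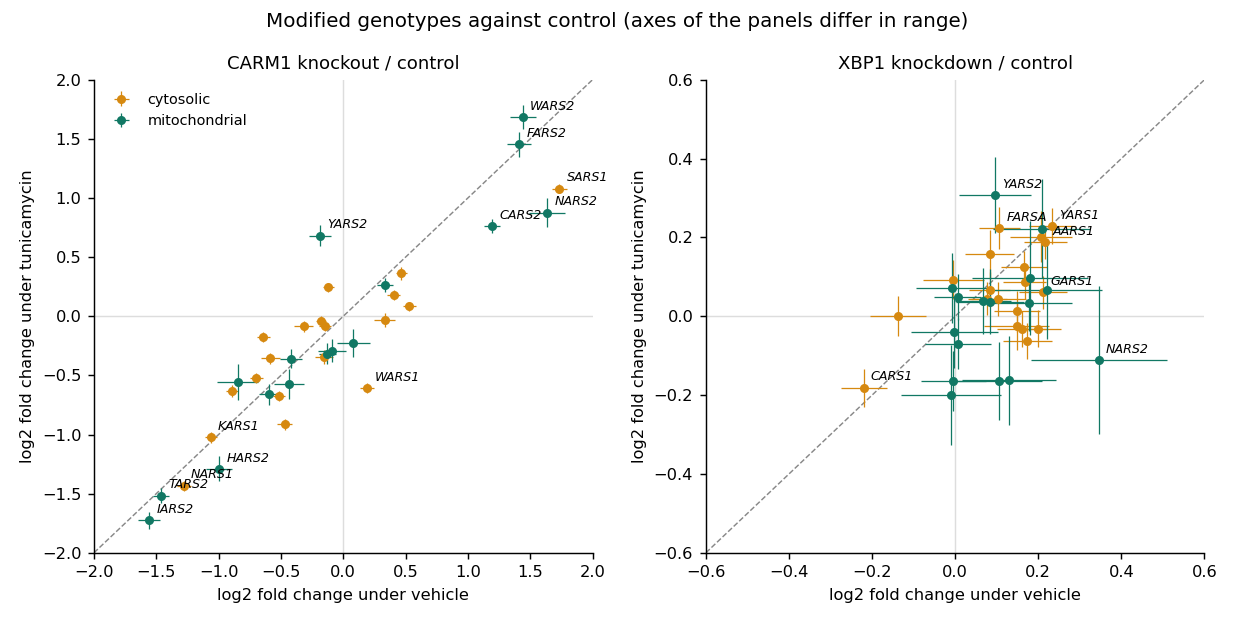
Log2 fold change against control cells with tunicamycin (vertical axis) and with vehicle (horizontal axis) for CARM1 knockout (left) and XBP1 knockdown cells (right), for cytosolic (orange) and mitochondrial enzymes (green), with bars for standard errors and a dashed line where both are equal. The axes of the panels differ in range: in the knockout the genes spread from −1.72 (IARS2 with tunicamycin) to 1.73 (SARS1 with vehicle), and in the knockdown from −0.22 (CARS1) to 0.35 (NARS2), both with vehicle.

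SARS1 was the cytosolic gene farthest above control in the knockout. Its level was 306, 293 and 325 CPM in vehicle-treated knockout libraries, next to 94.1, 93.0 and 82.4 CPM in control (log2 fold change 1.73, standard error 0.0593, edgeR adjusted p = 4.48e-13), and 672, 661 and 659 CPM with tunicamycin, next to 313, 309 and 324 CPM (1.08, standard error 0.0390, edgeR adjusted p = 1.97e-12). Vehicle-treated knockout cells thus held about as much SARS1 mRNA as tunicamycin-treated control cells. NARS1 was the cytosolic gene farthest below control, at 94.5, 93.8 and 94.6 CPM next to 223, 237 and 206 CPM with vehicle (−1.28, standard error 0.0565, edgeR adjusted p = 1.07e-11) and at 200, 193 and 199 CPM next to 557, 527 and 520.1 CPM with tunicamycin (−1.43, standard error 0.0426, edgeR adjusted p = 1.91e-13). With tunicamycin no knockout library reached even the vehicle-treated control level of NARS1. KARS1 (−1.06 and −1.02), FARSA (−0.89 and −0.63), IARS1 (−0.70 and −0.52), YARS1, LARS1, GARS1 (−0.52 and −0.67) and EPRS1 (−0.47 and −0.91) were lower under both treatments.

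QARS1, the glutamine enzyme, and MARS1 were higher under both treatments. QARS1 was at 207, 204 and 198 CPM with vehicle and at 210.2, 199.7 and 199 CPM with tunicamycin in the knockout, next to 140.4, 141 and 146 and 147, 173 and 155 CPM in control (log2 fold changes 0.47 and 0.36, standard errors 0.0461 and 0.0573). CARS1 was higher with vehicle, at 123, 119.7 and 123 CPM next to 82.6, 82.3 and 80.2 CPM (0.53, edgeR adjusted p = 1.23e-07), and at 364, 358 and 361 CPM next to 342, 333 and 352 CPM with tunicamycin, where it did not pass in edgeR (0.08, adjusted p = 0.0715) but did with DESeq2 (0.11, adjusted p = 0.0328). AARS1 was at 165, 168 and 159.6 CPM next to 170.4, 173 and 175 CPM with vehicle (−0.12, standard error 0.0457, edgeR adjusted p = 0.0292) and at 609.5, 622 and 621 CPM next to 521, 508 and 543 CPM with tunicamycin (0.24, standard error 0.0397, edgeR adjusted p = 5.32e-05). The vehicle call of AARS1 was weak. It was lost with DESeq2 (−0.08, adjusted p = 0.200) and without any vehicle library other than knockout library 2 (−0.12 to −0.09, edgeR adjusted p from 0.0669 to 0.124). FARSB (−0.15) likewise lost its call with DESeq2 (−0.11, adjusted p = 0.154) and without control library 1 or 2 or knockout library 1 (−0.14 to −0.12, edgeR adjusted p from 0.0557 to 0.0934). RARS1 (−0.32) was called lower with vehicle although its libraries overlapped.

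Mitochondrial genes differed from control in the knockout by log2 fold changes of −1.56 (IARS2) to 1.64 (NARS2) with vehicle. IARS2, the mitochondrial isoleucine enzyme, was at 35.8, 35.8 and 33.8 CPM next to 92.0, 92.6 and 116 CPM with vehicle (−1.56, standard error 0.0889, edgeR adjusted p = 2.57e-10) and at 30.0, 36.5 and 34.6 CPM next to 106, 114 and 116 CPM with tunicamycin (−1.72, standard error 0.0724, edgeR adjusted p = 1.14e-11). TARS2 (−1.46 and −1.52) and HARS2 (−1.0 and −1.29) were lower by similar amounts, and MARS2, EARS2, PARS2 and SARS2 by less. NARS2 was at 14.7, 14.6 and 12.1 CPM next to 4.49, 4.49 and 4.02 CPM with vehicle, 3.11-fold (1.64, standard error 0.144, edgeR adjusted p = 5.01e-08), and at 12.4, 13.3 and 12.2 CPM next to 6.40, 7.34 and 6.99 CPM with tunicamycin (0.88, standard error 0.125, edgeR adjusted p = 1.41e-05). Its direction is opposite to that of its cytosolic counterpart NARS1.

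WARS2, the mitochondrial tryptophan enzyme, was at 36.0, 38.3 and 38.4 CPM next to 15.3, 13.5 and 11.5 CPM with vehicle (1.44, standard error 0.103, edgeR adjusted p = 3.92e-09) and at 45.5, 45.5 and 42.8 CPM next to 13.6, 11.9 and 16.3 CPM with tunicamycin (1.68, standard error 0.10, edgeR adjusted p = 6.99e-10). FARS2, the mitochondrial phenylalanine enzyme, was at 28.2, 27.0 and 29.8 CPM next to 9.82, 10.4 and 10.6 CPM with vehicle (1.41, standard error 0.0974, edgeR adjusted p = 2.59e-09) and at 26.9, 32.0 and 32.0 CPM next to 10.9, 12 and 10.4 CPM with tunicamycin (1.45, standard error 0.105, edgeR adjusted p = 7.05e-09). Neither gene overlapped between the genotypes under either treatment. CARS2 (1.19 and 0.76) and RARS2 (0.33 and 0.27) were also higher. YARS2 did not pass with vehicle (−0.19, edgeR adjusted p = 0.0639; −0.24 and edgeR adjusted p = 0.0257 without control library 1) and was higher with tunicamycin (0.68, standard error 0.0856, edgeR adjusted p = 3.60e-06). VARS2 was lower with tunicamycin (−0.29, edgeR adjusted p = 0.0124), a call lost without control library 3 (−0.17, edgeR adjusted p = 0.117), and AARS2, called in no comparison, became lower with tunicamycin without control library 2 (−0.32, edgeR adjusted p = 0.0251). Of the 17 pairs for the same amino acid, 4 were called lower for the cytosolic and higher for the mitochondrial enzyme under each treatment, not all of them the same pairs. With vehicle these held FARSA and FARSB (both set against FARS2), NARS1 and RARS1, and with tunicamycin FARSA, NARS1, WARS1 and YARS1. The other way round were 2 pairs under each treatment, those of MARS1 and SARS1. Both enzymes were lower in 4 pairs with vehicle and 5 with tunicamycin, and both higher in 2 and 0.

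In XBP1 knockdown cells log2 fold changes of the synthetase mRNAs from control were small, between −0.22 and 0.35, and few passed the test. Of the cytosolic ones 16 of 19 were above 0 with vehicle and 14 with tunicamycin, and of the 16 mitochondrial ones 12 and 9. With vehicle 3 cytosolic genes were higher and 1 lower, against 2.07% and 3.03% of all genes, and 0 of 16 mitochondrial genes were called in either direction. At an unadjusted edgeR p under 0.05 there were 10 cytosolic genes higher and 1 lower with vehicle, and no mitochondrial gene. DESeq2 called 4 cytosolic genes higher and 1 lower, and no mitochondrial one. With tunicamycin 4 cytosolic genes were higher and 1 lower and 1 mitochondrial gene was higher, against 6.99% and 8.55% of all genes. The same control libraries served here and in the comparison with the knockout. Medians with vehicle were 0.15 over the cytosolic, 0.09 over the mitochondrial and 0 over all genes, and with tunicamycin 0.06, 0.03 and 0. The summed cytosolic level with vehicle was 2894.5 to 2978.6 CPM in control and 3205.1 to 3229.6 CPM in knockdown libraries. With tunicamycin it was 6321.2 to 6502.2 and 6629.5 to 6709.2 CPM, so the genotypes did not overlap under either treatment. The summed mitochondrial levels overlapped under both treatments.

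YARS1 had the largest of these differences among cytosolic genes. It was at 211, 192 and 203 CPM next to 164, 169.7 and 179 CPM with vehicle (log2 fold change 0.23, standard error 0.0554, edgeR adjusted p = 0.0242) and at 341, 323 and 319.7 CPM next to 279, 282 and 279.9 CPM with tunicamycin (0.23, standard error 0.0455, edgeR adjusted p = 0.00278). CARS1 was lower, at 70.6, 70.5 and 70.3 CPM next to 82.6, 82.3 and 80.2 CPM with vehicle (−0.22, standard error 0.0553, edgeR adjusted p = 0.0318) and at 306, 312 and 286 CPM next to 342, 333 and 352 CPM with tunicamycin (−0.18, standard error 0.0480, edgeR adjusted p = 0.0175). Neither gene overlapped between the genotypes under either treatment. AARS1 was higher with vehicle (0.22) and with tunicamycin (0.19, edgeR adjusted p = 0.00609), and GARS1 with vehicle (0.21, edgeR adjusted p = 0.0486). FARSA was higher with tunicamycin, at 241, 232 and 243 CPM next to 192, 206 and 217 CPM (0.22, standard error 0.0532, edgeR adjusted p = 0.00963), as were HARS1 (0.20, edgeR adjusted p = 0.0454) and YARS2, at 23.6, 21.7 and 22.6 CPM next to 19.1, 18.9 and 16.9 CPM (0.31, standard error 0.0972, edgeR adjusted p = 0.0428).

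Most of these knockdown calls changed when 1 library was left out. With vehicle the number of cytosolic calls was 0 without control library 1, 0 without control library 2, 7 without control library 3, 1 without knockdown library 2 and 0 without knockdown library 3, and with tunicamycin it was 3 without control library 3 and 2 without knockdown library 3. The log2 fold changes where a vehicle call was lost were 0.20 to 0.23 for YARS1, 0.19 to 0.22 for AARS1, 0.16 to 0.22 for GARS1 and −0.22 to −0.21 for CARS1, with edgeR adjusted p from 0.0635 to 0.190. With vehicle control library 3 left out, IARS1 (0.24), MARS1 (0.19) and LARS1 (−0.21) gained a call, and IARS1 also without knockdown library 1 (0.23). With tunicamycin, CARS1 lost its call without control library 3 or knockdown library 3 (−0.16 to −0.14), FARSA without knockdown library 3 (0.21), HARS1 without control library 1 or 3 or knockdown library 1 or 3 (0.16 to 0.20), and YARS2 without any one of the 6 libraries (0.25 to 0.34). NARS1 gained a call without control library 1 (0.15) and QARS1 without control library 2 (0.22). HARS1 and YARS2 were not called by DESeq2 (adjusted p = 0.0675 and 0.0944).

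Over the 6 groups, the patterns of the cytosolic genes were more alike than those of the mitochondrial ones. Likeness was taken as Pearson's r of group mean log2 CPM over 6 groups, which describes few points that share libraries and carries no test. The median r was 0.73 over 171 pairs of cytosolic genes, 0.005 over 120 pairs of mitochondrial genes and 0.166 over 304 pairs across compartments. AARS1 and TARS1 (0.993), CARS1 and MARS1 (0.985), GARS1 and FARSB (0.983) and IARS1 and YARS1 (0.982) were each other's nearest. The pattern of WARS1 was nearest that of TARS1 (0.980). Across compartments KARS1 and TARS2 (0.998) were nearest each other, both being low in knockout cells and little changed by tunicamycin, and EPRS1, LARS1 and NARS1 were nearest SARS2 (0.973, 0.986 and 0.984). Among mitochondrial genes, FARS2 and WARS2 (0.996) and IARS2 and EARS2 (0.997) formed pairs. YARS2 resembled no other synthetase, with WARS2 nearest at 0.306 and AARS2 farthest at −0.840.

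Some of these genes share exons with a neighbour, and whether the authors' counting used the strand of the reads is not given in the sources used here. HARS1 (ENSG00000170445, chromosome 5 of GRCh37 from 140052620 to 140071122, minus strand) and HARS2 (ENSG00000112855, chromosome 5 from 140071015 to 140078890, plus strand) lie head to head and share 108 exon bases. HARS1 was at 52.1, 56.1 and 58.3 CPM with vehicle and at 67.0, 70.1 and 64.8 CPM with tunicamycin in control cells, and at 49.6, 55.3 and 49.2 and at 53.2, 50.9 and 54.5 CPM in knockout cells. HARS2 was at 21.3, 23.0 and 25.2 and at 23.9, 23.8 and 24.8 CPM in control cells, and at 12.7, 11.6 and 11.7 and at 9.78, 11 and 8.66 CPM in knockout cells. HARS1 rose with tunicamycin in control cells (0.29), and HARS2 was at 0.07 and not called. In vehicle-treated knockout cells HARS2 was lower than control (−1.0), while HARS1 did not pass (−0.16, edgeR adjusted p = 0.0585). HARS1 passed without control library 1 or knockout library 2 (−0.21 to −0.18, edgeR adjusted p from 0.0251 to 0.0378). With tunicamycin both genes were called lower in knockout than in control cells (HARS1 −0.34, HARS2 −1.29). HARS1 also shares 1090 exon bases with WDR55 on the other strand, and HARS2 shares 152 with ZMAT2 on the same strand. MARS1 and DDIT3 overlap at their 3′ ends on opposite strands by 355 exon bases, where 3′ reads fall. Mean MARS1 levels rose with tunicamycin by 269.4, 266.0 and 275.4 CPM in control, knockout and knockdown cells, and those of DDIT3 by 280.6, 554.5 and 305.0 CPM, so that the increase of DDIT3 was larger in the knockout and that of MARS1 was about the same in each genotype. Without strand, reads of both genes could not be told apart there, and the part of this overlap in the MARS1 response was not tested. Exon bases on the other strand are also shared by CARS2 with ING1 (334), YARS1 with S100PBP (396), GARS1 with GARS1-DT (312) and WARS1 with WDR25 (287), and on the same strand by EARS2 with GGA2 (203). SARS2 shares 1492 exon bases on the same strand with ENSG00000269547, whose median count was 0, and VARS2 shares 4073 with ENSG00000288473, a non-coding gene without a row in the count table, so that reads from these stretches cannot be assigned to one gene with certainty.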

How the data were processed

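Libraries of 3′ mRNA from A1847 cells had been read singly over 75 nt. The authors mapped them with bowtie2 to hg19 and deposited RSEM expected counts per Ensembl gene, which were whole numbers without normalization. The submitters' processing notes give RSEM 1.2.3, whereas the paper's methods name another version of RSEM. Groups follow the labels for genotype and agent, and 0 columns of the table lacked a sample. Counts of 3′ reads are not divided by gene length, so that levels were compared between libraries and not between genes.

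In R 4.3.3, edgeR 4.0.16 was run with filterByExpr (minimum count 10 over all libraries), TMM normalization and quasi-likelihood F tests on only the groups in each comparison. Benjamini-Hochberg adjustment was over 17317 genes, with calls at 0.05. The standard error of a log2 fold change is its size over the root of F. CPM were scaled with TMM factors over all 18 libraries, and log2 CPM used a prior count of 2. Lists were described by counts and medians, without a test. The fits were tested on simulated data.

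The genes and lists were chosen with earlier results of these data known. Values in every library were given for the 4 cytosolic and 3 mitochondrial genes with the largest called response in control cells, the 2 per compartment with the largest called difference from control, the 2 with the largest called interaction term in each direction, up to 3 genes per comparison called against most of their compartment, and HARS1 and HARS2. Values of other libraries of these genes were added for contrast. Beside ATF4 and ASNS, partner genes were named by the largest called changes, up to 3 per list. PYCR1 was named after its value was seen.

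Same-numbered libraries did not deviate together (21 correlations from −0.048 to 0.039). Between replicates, chi-square per degree of freedom was 1.84 to 6.89 over 18 pairs, so precision was taken from the replicates and not from counting error. Alternatives were DESeq2 1.42.0, its size factors in edgeR, no filter, a single fit of all libraries, a block for replicate number, an FDR of 1%, and each library left out in turn. Genome positions of genes are those of GRCh37.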

Additional observations from a re-analysis of the deposited data

Results flagged for a closer look

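The response to tunicamycin differed between CARM1 knockout and control cells, by edgeR's test of the interaction itself, for 13 synthetase genes. The term on the log2 scale was negative for WARS1 (−0.85), NARS2 (−0.81), SARS1 (−0.70), CARS1 (−0.49), EPRS1 (−0.49), CARS2 (−0.48), VARS1 (−0.41), MARS1 (−0.27) and GARS1 (−0.20). It was positive for YARS2 (0.82), YARS1 (0.42), AARS1 (0.32) and FARSA (0.21). The terms of WARS1, NARS2, SARS1, CARS1, EPRS1, CARS2, YARS2, YARS1 and AARS1 were called under each of the alternatives tried, those of the other 4 were not. The knockout libraries also stood apart from the others in markers unrelated to tRNA synthetases, and the part of that difference in these terms was not tested.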

How the results depend on the processing

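No synthetase result changed direction after being called. In XBP1 knockdown against control cells with vehicle, cytosolic calls went from 4 to 9 with all libraries in one fit and to 0 at an FDR of 1%, and ranged from 0 to 7 when a library was left out. With tunicamycin they went from 5 to 3 at an FDR of 1% and ranged from 2 to 6, and the 1 mitochondrial call went to 0 with DESeq2, at an FDR of 1% and in every fit without a library (0 to 0). The knockdown interaction had 2 cytosolic calls with DESeq2, 2 with all libraries in one fit, and 0 to 2 without a library, against 0. The replicate block left 308 of 315 gene results on their side of the threshold, with 3 gained and 4 lost. The replicate numbers pair the libraries in name alone, since same-numbered libraries did not deviate together. DESeq2 gained 4 and lost 6 of the 315, its size factors 2 and 3, no filter 4 and 4, all libraries in one fit 9 and 3, and an FDR of 1% lost 16. When a library was left out, 2215 gene results kept their side, 25 were gained and 70 lost. Without the filter the knockdown interaction had 263 larger and 469 smaller responses over all genes, against 63 and 290. The cause of these changes was not tested. The lowest count of a gene in any library was 46 (MARS2) to 604 (RARS2) among mitochondrial and 430 (HARS1) to 2651 (TARS1) among cytosolic genes. Standard errors tended to be larger for the mitochondrial genes, and how far depth limited their calls was not tested.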
